A study of Mus musculus with 12 samples.

Results

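Collagen chains are the protein subunits that wind around each other to build the collagens of the extracellular matrix. The chains described here are the genes whose mouse symbol is Col, a number, the letter a and a number, which gave 44 of the 53707 genes in the deposited gene table. They were divided into 11 fibrillar chains, 8 chains of basement membranes (types IV, XV and XVIII), 6 type VI chains and 19 other chains. After a filter on low counts, 42 chains were tested; Col6a6 and Col10a1 did not pass it.

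RNA was measured in retinal explants, whole retinas dissected free of sclera and pigment epithelium and kept alive in culture. The retinas came from wild-type C57BL/6J mice at 28 days of age and stayed for 48 hours in Neurobasal-A medium with B27 and N2 supplements and antibiotics. The control explants had 5 mM glucose and the others 25 mM glucose, and nothing else in the labels differed between these groups. Each concentration had 3 biological replicates, and each of these had 2 technical replicates, of which the first was in batch 1 and the second in batch 2, giving 12 libraries. How many retinas or animals made up a biological replicate was not given in the sources used here, so p-values measure the spread between these samples. The comparison asks how collagen chain RNA differed between explants in high and low glucose.

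Fibrillar collagens (types I, II, III, V and XI among them) assemble into the fibrils of connective tissue, vessel walls and vitreous. Type IV chains form the sheet-like network of basement membranes, which in the retina line the capillaries and the inner surface. Type VI collagen makes beaded filaments that link cells and basement membranes to the surrounding matrix, and the other chains include fibril-associated, transmembrane and network-forming collagens. Before export the chains are hydroxylated, folded with dedicated chaperones and trimmed, and outside the cell they are crosslinked.

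Values below are CPM, the counts of a gene relative to the library total, scaled by TMM, a normalization that sets libraries on a common scale, for the sum of both technical replicates, and all levels of a chain are listed from replicate 1 to replicate 3. Library totals lay between 17998905 and 36692484 estimated counts at 5 mM and between 14815285 and 23129541 at 25 mM. The tissue label was checked with marker lists. The 8 rod photoreceptor markers summed to 2714 to 5166 CPM at 5 mM and 5893 to 8094 CPM at 25 mM, while the retinal pigment epithelium, melanocyte and lens lists each summed to at most 5.53 CPM in every replicate. Technical replicates did not stand closest to each other. Across 16423 genes, the technical partner was the closest library for 0 of 12 libraries, with correlations between partners of 0.928 to 0.975. The lowest belonged to 25 mM replicate 2, and the closest library outside their own replicate had the other glucose concentration for 2 libraries, both from 5 mM replicate 1. Whether technical replicates came from 1 RNA or from separate explants is not given in the sources used here, and crossed labels cannot be told apart from either, so each biological replicate value below is a sum that rests on the labels as given. Fold changes by batch are given for the called genes, the marker lists and some of the other chains.

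Collagen chain RNA was on the whole lower at 25 mM glucose. Summed over all 44 chains, it was 861 ± 399 CPM (SD, n = 3) at 5 mM and 337 ± 61.0 CPM at 25 mM, and the lowest control sum of 460 CPM lay above the highest sum of 408 CPM at 25 mM. These sums join both batches. Among single libraries of batch 2 the sums overlapped, with 5 mM replicate 1 below 25 mM replicate 3. For Col4a1 alone these libraries had 65.2 and 105 CPM. Most of the gap between the means was in the basement membrane chains Col4a1 and Col4a2. The remaining chains also summed to 406 ± 108 CPM against 256 ± 28.8 CPM, without overlap over both batches but with overlap among the libraries of batch 2. Of the chains tested, 28 had a log2 fold change below 0 and 14 above 0, with a median of -0.51, while the median of all 21061 genes tested was -0.01. After a correction for GC content and length described further on, 24 were below 0 and 18 above, with a median of -0.28. In bulk RNA, fewer cells that make a collagen and less collagen RNA per cell cannot be told apart.

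With the edgeR quasi-likelihood test and Benjamini-Hochberg adjustment over all genes tested (the adjusted p is called FDR from here on), 5 chains passed an FDR of 0.05. Col3a1, Col5a2 and Col6a3 fell, and Col4a4 and Col19a1 rose. Of all genes, 1.98% passed this threshold, 1.47% higher and 0.513% lower at 25 mM. At the stricter threshold of an FDR of 0.01 with a fold change over 2, the test called 0 chains, as it called 0% of all genes, whereas the Wald test of DESeq2 called 13 chains there, against 6.59% of all genes. At an FDR of 0.05 DESeq2 called 22 chains (5 higher and 17 lower), against 16.6% of all genes. The unadjusted p was under 0.05 for 23 chains, 17 lower and 6 higher, where 28.7% of all genes had such a p. The 3 replicates of one concentration all lay beyond those of the other for 21 chains (16 lower, 5 higher), against 31.8% of all genes. Another 11 chains had an FDR between 0.05 and 0.1. With 3 replicates against 3, an exact permutation test of a single chain cannot give a two-sided p under 0.1.

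**Figure D1:**
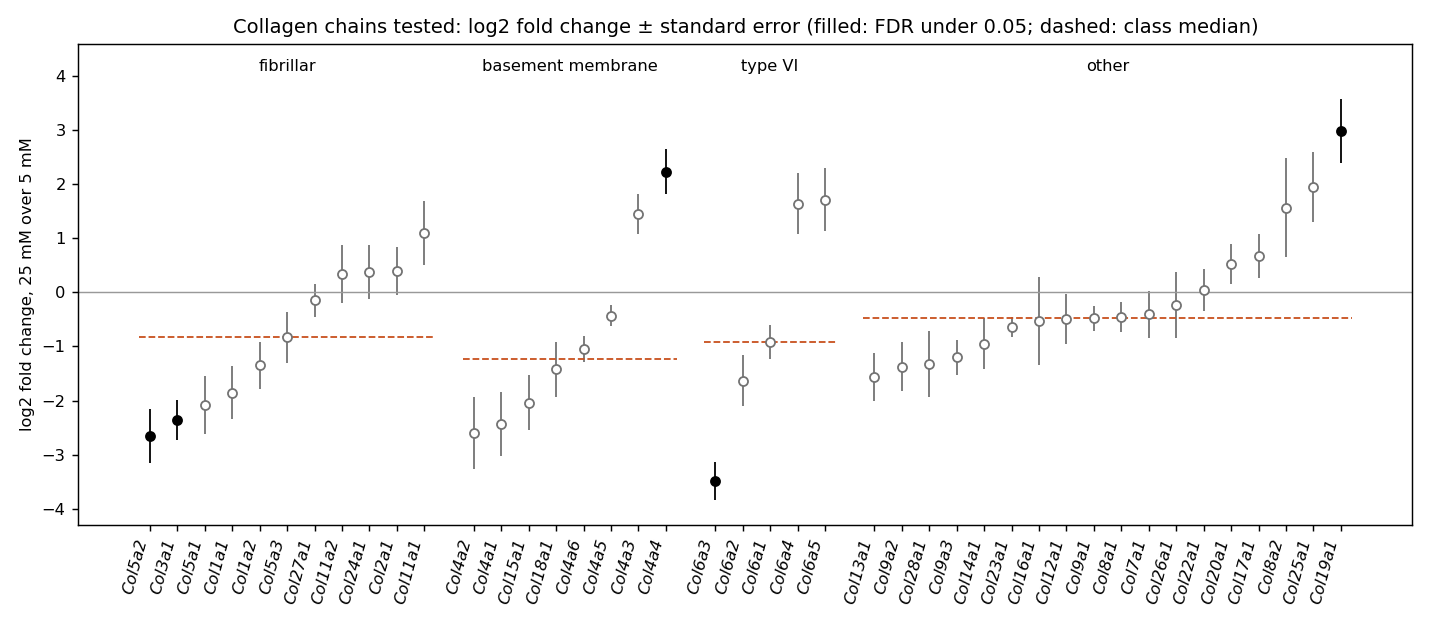
Log2 fold change (25 mM over 5 mM glucose, vertical axis) with its standard error for the 42 chains tested, grouped by class; filled points passed an FDR of 0.05 and dashed lines are class medians. The filled points are Col5a2, Col3a1 and Col6a3 below 0 and Col4a4 and Col19a1 above 0, and the medians lie at -0.83, -1.23, -0.92 and -0.47 from left to right.

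Markers of the cell types of vessels and connective tissue also had values below 0. All 8 endothelial markers had log2 fold changes below 0 (median -1.66), and their sum was 1156 to 2058 CPM at 5 mM and 430 to 927 CPM at 25 mM. Of the 10 pericyte and smooth muscle markers, 9 were below 0 (median -1.49), with sums of 419 to 541 CPM and 250 to 424 CPM. These sums overlapped, and the pericyte marker Rgs5 alone gave 255 to 283 CPM and 209 to 351 CPM of them. Among the fibroblast markers 5 of 6 tested were below 0 (median -0.92), with sums of 194 to 199 CPM and 35.8 to 141 CPM. Most of these sums was Dcn, with 153 to 157 CPM and 20.5 to 115 CPM. None of these lists held a gene with an FDR under 0.05, the lowest being 0.059 for Pdgfrb, a growth factor receptor of pericytes. Defining markers did not all move alike: Kdr, an endothelial receptor for vascular growth factor, had a log2 fold change of -0.03 and the pericyte marker Rgs5 one of 0.09, whereas the endothelial junction genes Cdh5 and Cldn5 had -2.19 and -2.20. The microglia list was below 0 in 6 of 6 genes (median -0.98), Mueller glia in 5 of 6 (median -0.34), and the rod list was above 0 in 8 of 8. Of the rod markers 5 were called, where 1.47% of all genes were called higher at 25 mM. The astrocyte and oligodendrocyte lists had medians of -0.34 and 0.60 over 3 genes each, with 0 and 1 called, against 1.98% of all genes. These values differed between the batches. The endothelial median was -2.81 in batch 1 and -0.48 in batch 2, the pericyte and smooth muscle median -2.43 and -0.92, the fibroblast median -1.74 and -0.17, and the microglia median -1.26 and -0.65. Cdh5 had log2 fold changes of -4.13 and -0.58, and Kdr had -0.45 and 0.46. The rod median was 1.16 in batch 1 and 1.26 in batch 2. The part of these cell types in the collagen result was not tested.

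Between chains, levels were compared per kilobase of transcript. At 5 mM glucose Col4a1 had 48.0 ± 29.9 CPM per kb and Col4a2 25.8 ± 17.8, followed by the transmembrane collagen Col23a1 with 13.5 ± 1.14 and Col18a1, a basement membrane proteoglycan, with 13.4 ± 6.85. Next came Col9a1, a fibril-associated chain of cartilage and vitreous, with 6.75 ± 1.33 and Col6a1 with 6.46 ± 1.82 CPM per kb. Each step down this order was smaller than the larger SD of the pair. At 25 mM Col4a1 had 8.90 ± 4.91 and Col23a1 8.63 ± 1.63 CPM per kb, a gap smaller than either SD. Below them lay Col18a1 with 4.99 ± 3.25, Col9a1 with 4.85 ± 0.68, the fibrillar chain Col2a1 with 4.49 ± 1.85 and Col4a2 with 4.25 ± 2.61, and neighbours among these also differed by less than their SD. Over both concentrations 1 chain had a mean above 100 CPM, 11 lay between 10 and 100, 21 between 1 and 10, and 11 below 1 CPM. Values are given in full for the most abundant chains of each class and those called, and any other chain is named after its values were seen.

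**Figure D2:**
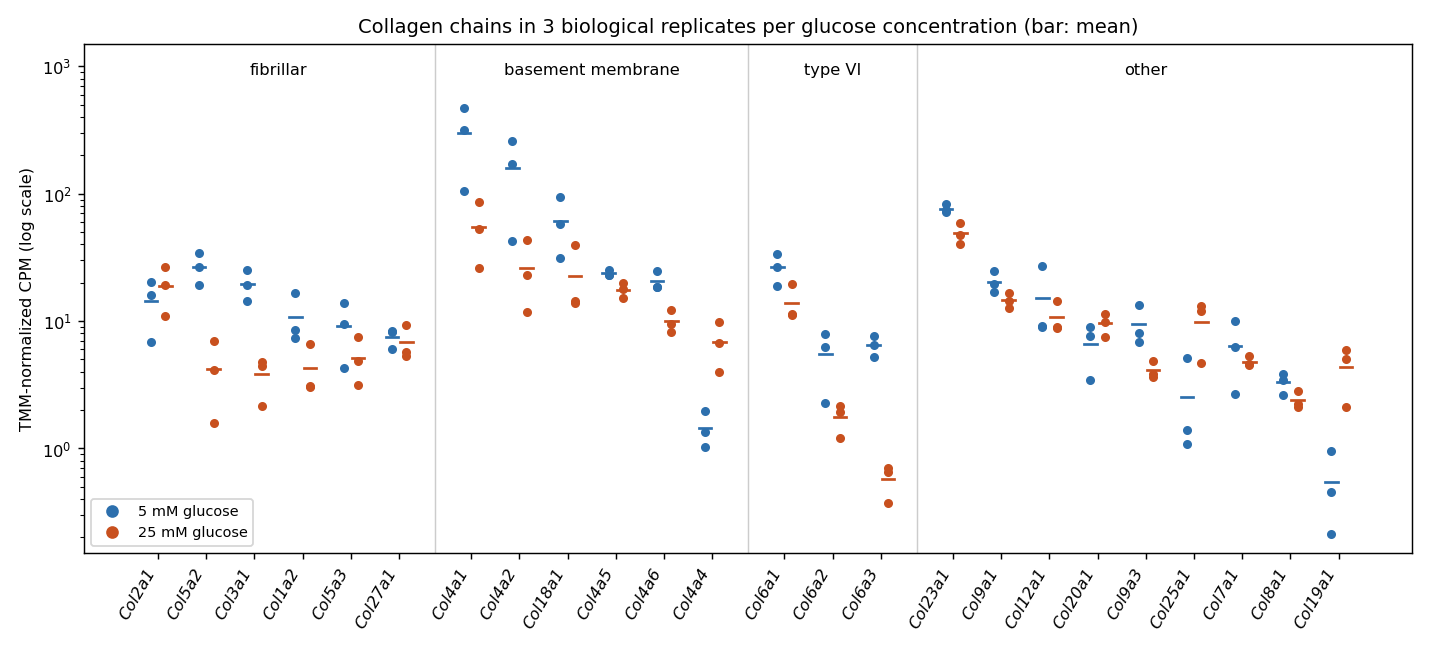
TMM-normalized CPM on a log axis for the 24 chains with the highest means of each class or an FDR under 0.05, with 1 point for each of 3 biological replicates and a bar at the mean, blue for 5 mM and orange for 25 mM glucose. Col4a1 and Col4a2 reach the highest values at 5 mM, Col6a3 at 25 mM lies between 0.37 and 0.70 CPM, and Col4a4, Col19a1 and Col25a1 have their means higher at 25 mM.

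Of the 8 basement membrane chains, 6 were below 0 and 2 above, and the median was -1.23. Col4a1 and Col4a2 are the common chains of vessel and other basement membranes and assemble together. Col4a1 had 104, 473 and 316 CPM at 5 mM and 26.2, 52.4 and 86.9 CPM at 25 mM. Col4a2 had 42.5, 259 and 173 CPM at 5 mM and 11.7, 23.2 and 43.2 CPM at 25 mM. For both, replicate 1 of the controls was far below the other controls, which left no overlap for Col4a1 and a slight overlap for Col4a2. The log2 fold changes were -2.43 ± 0.59 (SE) and -2.60 ± 0.67, with FDRs of 0.065 and 0.071 in the edgeR test, so neither was called. Together these chains made up 48.8% ± 14.7 of all collagen CPM at 5 mM and 23.2% ± 9.91 at 25 mM. They kept their proportion to each other, with a ratio per kilobase of 2.01 ± 0.36 and 2.14 ± 0.14, a gap smaller than the SD.

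Col4a3 and Col4a4, which with Col4a5 form the network of the adult kidney filter and some eye membranes, stood on the other side of 0. Col4a4 (ENSMUSG00000067158) had 1.03, 1.34 and 1.98 CPM at 5 mM and 9.76, 6.73 and 3.98 CPM at 25 mM. All 3 high-glucose replicates lay above all controls, the log2 fold change was 2.24 ± 0.41 and the FDR in the edgeR test was 0.043. Col4a3 had 2.10, 2.31 and 2.23 CPM at 5 mM and 8.86, 5.99 and 3.28 CPM at 25 mM, a log2 fold change of 1.45 ± 0.37 with an FDR of 0.071. The controls lay close together for Col4a3 and less so for Col4a4, and the high-glucose replicates stood in the same order for both genes. The ratio of Col4a3 to Col4a4 per kilobase was 1.97 ± 0.56 at 5 mM and 1.05 ± 0.05 at 25 mM.

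These genes stand head to head on chromosome 1, Col4a4 on the minus strand (chr1:82448423-82586849) and Col4a3 on the plus strand (chr1:82586921-82722059, GRCm38, GENCODE M21). The 71 bases between their starts are shown because both genes had log2 fold changes above 0 and begin on either side of it. They are given from the RefSeq promoter table (GRCm38.p6, chr1:82586850-82586920), read 5′ to 3′ toward the start of Col4a4 on the minus strand.
Col4a4 and Col4a3 shared upstream stretch: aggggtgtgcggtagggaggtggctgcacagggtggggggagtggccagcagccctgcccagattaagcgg
This stretch was 69.0% G or C, against a median of 54.9% in the last 71 bases before the start over all 32851 promoters of the table. It was searched on both strands for the letters TATAAA, known as the TATA box, for the CCAAT motif and for the letters GGGCGG, known as the GC box. It held none of these, so it has no capitals. Stretches of this length held these motifs in 4.4%, 13.3% and 20.7% of all promoters.

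The other head-to-head pairs of type IV genes also had both members on the same side of 0. Col4a1 and Col4a2 overlap by 22 bases at their starts on chromosome 8, and both were below 0. Col4a5 and Col4a6 lie 1308 bases apart on the X chromosome. Col4a6, a chain of smooth muscle and epithelial basement membranes, had 18.5, 24.6 and 18.4 CPM at 5 mM and 8.16, 9.5 and 12.2 CPM at 25 mM, without overlap and with a log2 fold change of -1.04 ± 0.24 and an FDR of 0.062 in the edgeR test. Col4a5 had 23.0, 25.4 and 22.9 CPM at 5 mM and 19.8, 15.2 and 17.9 CPM at 25 mM, a smaller step of -0.43 ± 0.19 with an FDR of 0.181. Whether position bears on the fold changes was not tested.

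Both basement membrane chains outside type IV were below 0. Col18a1, the source of the fragment endostatin, had 31.3, 93.6 and 58.2 CPM at 5 mM and 13.9, 14.5 and 39.9 CPM at 25 mM, and the highest replicate at 25 mM lay above the lowest control. Its log2 fold change was -1.42 ± 0.51 (FDR 0.118, edgeR). Col15a1, a related chain of vessel and muscle basement membranes, went from 2.64 ± 1.40 to 0.64 ± 0.26 CPM without overlap, with a log2 fold change of -2.04 and an FDR of 0.070 in the edgeR test.

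**Figure D3:**
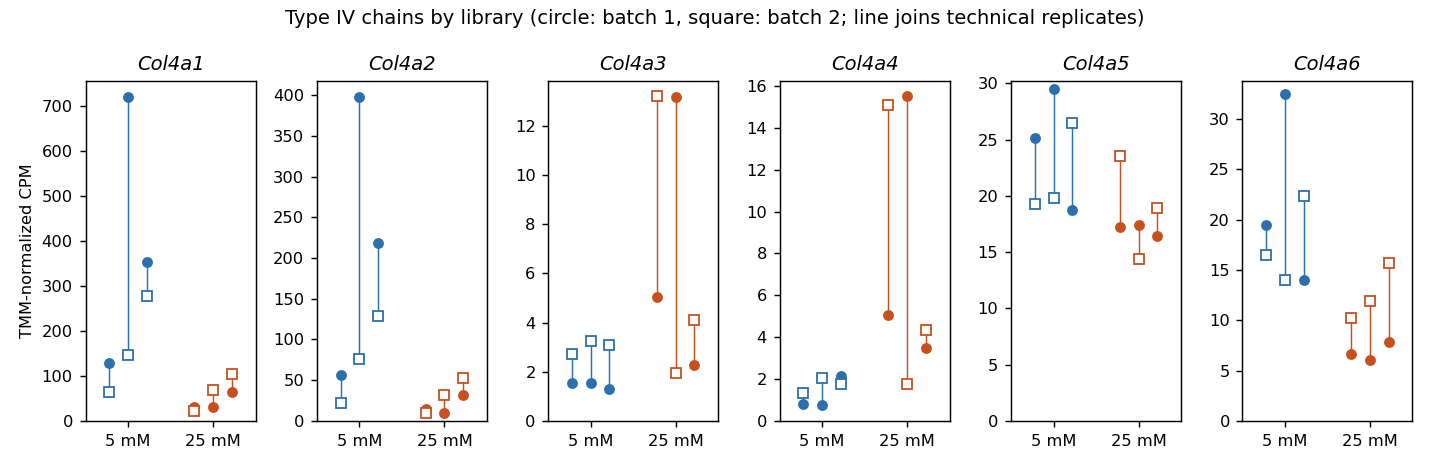
TMM-normalized CPM of the 6 type IV chains in each of 12 libraries; circles are batch 1, open squares batch 2, a line joins the technical replicates of a biological replicate, and each panel has its own linear axis. The library of 5 mM replicate 2 in batch 1 stands at 720 CPM for Col4a1 against 147 CPM in batch 2, and 25 mM replicate 2 has 15.5 CPM of Col4a4 in batch 1 against 1.79 CPM in batch 2.

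Of the 11 fibrillar chains, 7 were below 0 and 4 above, with a median of -0.83, and the class summed to 105 ± 34.4 CPM at 5 mM and 56.6 ± 10.1 CPM at 25 mM. Col3a1 (ENSMUSG00000026043), the main fibrillar chain of vessel walls and soft tissue, had 14.5, 25.2 and 19.1 CPM at 5 mM and 2.16, 4.46 and 4.82 CPM at 25 mM. Every control lay above every high-glucose replicate, and this also held for all 12 single libraries. Its log2 fold change was -2.36 ± 0.37, with an FDR of 0.033 in the edgeR test. Col5a2 (ENSMUSG00000026042), a type V chain that takes part in starting fibrils, had 19.2, 34.3 and 26.5 CPM at 5 mM and 1.58, 4.11 and 6.96 CPM at 25 mM. The libraries did not overlap here either, and the log2 fold change was -2.66 ± 0.50 with an FDR of 0.046. Both genes are on chromosome 1, tail to tail and 24614 bases apart, Col3a1 at chr1:45311538-45349706 on the plus strand and Col5a2 at chr1:45374321-45503282 on the minus strand. Of Col3a1, 1 annotated gene on the same strand (Gm47302) shares exonic bases, so reads there could be counted for either.

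Col5a1, the partner of Col5a2 in type V collagen, had 4.61, 17.3 and 6.06 CPM at 5 mM and 1.99, 1.53 and 3.03 CPM at 25 mM, also without overlap in single libraries, and 1 control replicate stood far above the others. Its log2 fold change was -2.09 ± 0.54, with an FDR of 0.071 in the edgeR test. Col1a2, a chain of the main collagen of skin, bone and sclera, had 8.53, 16.6 and 7.36 CPM at 5 mM and 3.01, 3.09 and 6.65 CPM at 25 mM, with a log2 fold change of -1.35 ± 0.44 and an FDR of 0.101 in the edgeR test. Its partner Col1a1 had only 1.18 ± 0.74 and 0.32 ± 0.05 CPM, and in 1 library its gene value was 4.56 times the sum of its transcripts, so its level is uncertain. Col5a3, the third type V chain, had 4.24, 13.8 and 9.55 CPM at 5 mM and 4.82, 3.15 and 7.51 CPM at 25 mM, with overlapping replicates and a log2 fold change of -0.83 ± 0.47 (FDR 0.274, edgeR).

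Other fibrillar chains had values nearer to 0 or above it. Col2a1, the chain of type II collagen, had 6.83, 20.1 and 16.0 CPM at 5 mM and 19.2, 10.9 and 26.5 CPM at 25 mM, so the groups overlapped and the log2 fold change was 0.40 ± 0.44 (FDR 0.561, edgeR). Col27a1, another cartilage fibril chain, had 6.00, 8.33 and 8.23 CPM at 5 mM and 9.34, 5.72 and 5.36 CPM at 25 mM, with a log2 fold change of -0.14 ± 0.30 (FDR 0.775) that was 0.75 in batch 1 and -1.01 in batch 2. The type XI chains Col11a1 and Col11a2 and the fibrillar chain Col24a1 had values of 1.10, 0.35 and 0.38, with overlapping replicates for each. Col11a1 and Col11a2 were below 0 in batch 2, at -0.53 and -0.56.

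The stretch before the start of Col3a1 and that of Col6a3 are shown because these are the called chains that fell and have an entry in the RefSeq table, which held 35 of the 44 chains with 38 promoters. Each is the 250 bases upstream, 5′ to 3′ on the gene's strand, at chr1:45311288-45311537 (plus) and chr1:90843972-90844221 (minus) in GRCm38.p6, and capitals mark a match to any of the same motifs on either strand.
Col3a1: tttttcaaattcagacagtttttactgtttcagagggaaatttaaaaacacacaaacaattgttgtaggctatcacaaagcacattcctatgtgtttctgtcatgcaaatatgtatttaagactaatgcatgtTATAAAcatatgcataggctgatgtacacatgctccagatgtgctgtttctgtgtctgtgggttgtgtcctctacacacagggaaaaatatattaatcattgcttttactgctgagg
Col6a3: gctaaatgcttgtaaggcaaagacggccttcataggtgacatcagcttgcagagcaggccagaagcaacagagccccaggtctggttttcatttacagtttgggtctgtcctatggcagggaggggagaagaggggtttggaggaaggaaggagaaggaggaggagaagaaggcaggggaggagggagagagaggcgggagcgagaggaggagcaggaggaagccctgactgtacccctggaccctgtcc
The Col3a1 stretch was 35.2% G or C and held 1 TATAAA, and the Col6a3 stretch was 57.2% G or C and held none of these motifs. The TATAAA of Col3a1 lies near the middle of the 250 bases, not next to the start. It is a match of letters only, and whether it acts as a promoter element was not tested. Over all promoters the median was 52.4%, and 12.4% held TATAAA, 33.8% CCAAT and 32.7% GGGCGG. Of the 38 collagen promoters, 13.2% held TATAAA, 34.2% CCAAT and 57.9% GGGCGG, and their median was 59.0% G or C.

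Type VI collagen is built from Col6a1, Col6a2 and one longer chain, usually Col6a3, which Col6a4, Col6a5 or Col6a6 can replace. Col6a3 (ENSMUSG00000048126, chr1:90765923-90843971, minus strand) had 5.26, 6.54 and 7.66 CPM at 5 mM and 0.37, 0.66 and 0.70 CPM at 25 mM. All 12 libraries kept to their side, and this was the chain with the largest step of the 42 tested, a log2 fold change of -3.49 ± 0.35 with an FDR of 0.0217 in the edgeR test, the lowest FDR in the whole table, shared with other genes. Its levels at 25 mM were low, down to 0.05 CPM in 1 library. Between libraries its gene value was 0.38 to 2.33 times the sum of its transcripts. Before scaling for depth, these sums were 136, 425 and 243 counts at 5 mM and 11, 14 and 24 counts at 25 mM. The direction was the same there, but how close the controls lay to each other, and with it the SE, is uncertain. Col6a1 had 19.0, 33.9 and 26.5 CPM at 5 mM and 19.6, 11.1 and 11.3 CPM at 25 mM, where replicate 1 lay among the controls, and its log2 fold change was -0.92 ± 0.31 (FDR 0.108). Col6a2 had 2.28, 7.99 and 6.28 CPM at 5 mM and 1.95, 1.20 and 2.17 CPM at 25 mM, just without overlap, at -1.63 ± 0.48 (FDR 0.084). Per kilobase, Col6a1 exceeded Col6a3 by a ratio of 8.0 ± 1.86 at 5 mM and 56.1 ± 41.2 at 25 mM, so the chains did not keep their proportion.

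The alternative long chains stood above 0. Col6a4 and Col6a5, neighbours on chromosome 9, had log2 fold changes of 1.64 ± 0.57 (FDR 0.113, edgeR) and 1.72 ± 0.58 (FDR 0.107). Their replicates did not overlap, but levels were low, at 0.76 ± 0.46 and 2.39 ± 1.23 CPM for Col6a4 and 0.17 ± 0.13 and 0.59 ± 0.25 CPM for Col6a5. Between libraries the gene value of Col6a5 was 0.66 to 4.90 times the sum of its transcripts, and that of Col6a4 0.73 to 1.90 times. The level of Col6a5, and the lack of overlap between its replicates, are therefore uncertain. Col6a6, the next gene in the same row, had 0.19 ± 0.04 and 0.51 ± 0.36 CPM with overlapping replicates and was not tested. The class median of -0.92 rests on the 5 chains that passed the filter, 3 below 0 and 2 above. With Col6a6 included, by testing without a filter, it was 0.23.

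Of the 18 other chains tested, 12 were below 0 and 6 above, with a median of -0.47, and the 19 in the table summed to 150 ± 29.8 CPM at 5 mM and 116 ± 6.48 CPM at 25 mM. Col19a1 (ENSMUSG00000026141), a fibril-associated chain made by some neurons, had 0.96, 0.45 and 0.21 CPM at 5 mM and 5.98, 5.01 and 2.10 CPM at 25 mM. The groups did not overlap, the log2 fold change was 2.99 ± 0.60 and the FDR in the edgeR test was 0.049, close to the threshold. Of its counts, 93.7% were estimated to lie on a transcript annotated as a processed transcript without a coding sequence. The coding transcripts of Col19a1 had at most 8 counts each in any library. Col9a1, which lies tail to tail with it 9205 bases away on chromosome 1, had 19.5, 24.8 and 16.8 CPM at 5 mM and 16.8, 12.7 and 14.4 CPM at 25 mM, a log2 fold change of -0.48 ± 0.23 (FDR 0.206).

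Col25a1, a transmembrane collagen of neurons, had 5.17, 1.40 and 1.08 CPM at 5 mM and 13.1, 11.9 and 4.7 CPM at 25 mM. A single control replicate lay above the lowest high-glucose replicate, and the log2 fold change of 1.95 ± 0.64 had an FDR of 0.103 in the edgeR test. That control is replicate 1, in which the library of batch 2 had 10.4 CPM and that of batch 1 had 1.26 CPM. Without this library, left out after its values were seen, Col25a1 had a log2 fold change of 2.97 and an FDR of 0.016 in the edgeR test. In that fit 8.27% of all genes passed an FDR of 0.05. Leaving out the highest control raises the step in any case, so the larger value is no support for a difference. By batch the log2 fold change was 3.38 and 0.53.

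Col23a1, the most abundant chain of this class, had 73.9, 83.8 and 71.7 CPM at 5 mM and 47.2, 40.5 and 58.7 CPM at 25 mM. The spread between replicates was small and the groups stood apart, but the step was also small at -0.65 ± 0.19 (FDR 0.081, edgeR). Col9a3, which joins Col9a1 and Col9a2 in type IX collagen, had 8.11, 13.4 and 6.87 CPM at 5 mM and 3.85, 3.64 and 4.88 CPM at 25 mM, a log2 fold change of -1.20 ± 0.32 (FDR 0.074). Col9a1 exceeded Col9a3 per kilobase by a ratio of 1.90 ± 0.29 at 5 mM and 3.06 ± 0.60 at 25 mM.

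The remaining abundant chains of this class had overlapping replicates. Col12a1, which decorates fibrils in tendon and cornea, had 9.10, 27.2 and 8.98 CPM at 5 mM and 9.04, 14.3 and 8.89 CPM at 25 mM, a log2 fold change of -0.49 ± 0.46. Col7a1, the anchoring fibril chain of skin, had 2.69, 10.0 and 6.28 CPM at 5 mM and 5.31, 4.49 and 4.57 CPM at 25 mM, at -0.40 ± 0.44. For both, the spread at 5 mM was the wider one and took in all replicates at 25 mM or all but the lowest. Col8a1, a network chain of vessels and the cornea, had 3.45, 3.82 and 2.62 CPM at 5 mM and 2.13, 2.24 and 2.83 CPM at 25 mM, at -0.46 ± 0.28. Col20a1, a fibril-associated chain, had 3.45, 8.94 and 7.62 CPM at 5 mM and 11.4, 7.5 and 9.81 CPM at 25 mM, at 0.52 ± 0.37. The FDRs of these chains in the edgeR test were 0.302 to 0.558. The 9 less abundant chains tested in this class had log2 fold changes from -1.57 (Col13a1, which lay without overlap at 0.79 ± 0.27 and 0.26 ± 0.10 CPM) to 1.57 (Col8a2, with overlapping replicates). None of them had an FDR under 0.05. Col10a1, the chain of growth plate cartilage, had 0.15 ± 0.06 and 0.08 ± 0.02 CPM and was not tested.

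The transcript table shows how the estimated counts of a chain were divided. For Col4a1, most counts lay on 2 long transcripts, the coding Col4a1-201 and Col4a1-208, which is annotated as subject to nonsense-mediated decay, the removal of messages with an early stop. The coding transcript took 15.5%, 77.8% and 73.5% of Col4a1 counts in the 5 mM replicates and 16.2%, 4.28% and 16.3% in the 25 mM replicates. The other took 79.0%, 15.6% and 20.4% at 5 mM and 77.4%, 88.6% and 75.3% at 25 mM. Thus 2 controls were mostly coding, while the third control, replicate 1, stood among the high-glucose replicates, so the groups overlapped. Such estimates divide reads shared by long, similar transcripts, and the coding transcript was listed at 0 in 2 libraries, 1 of each concentration. For Col4a4 and Col5a2, 99.5% and 99.1% of counts lay on a single coding transcript, and for Col3a1 83.0%.

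**Figure D4:**
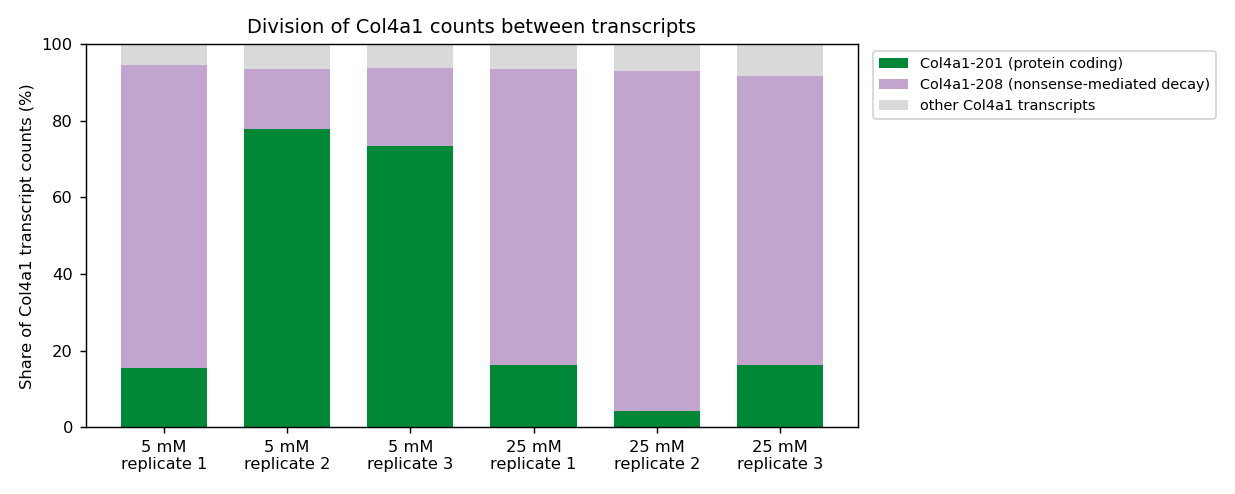
Share of Col4a1 transcript counts (percent, stacked to 100) in each biological replicate. Col4a1-201 takes 77.8% and 73.5% in 5 mM replicates 2 and 3 and 15.5% in 5 mM replicate 1, and at most 16.3% at 25 mM.

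The batches gave the same direction for most chains but not the same size. Of 39 chains tested in both batches, 28 had the same sign (21 below 0 and 7 above), and 34 lay further from 0 in batch 1. The called chains kept their sign, at -3.24 in batch 1 and -1.30 in batch 2 for Col3a1, -3.65 and -1.50 for Col5a2, -4.14 and -2.42 for Col6a3, 2.67 and 2.02 for Col4a4, and 3.86 and 2.37 for Col19a1. Col4a1 had -3.29 and -1.30, Col18a1 -2.34 and -0.43, Col1a2 -2.20 and -0.65, Col25a1 3.38 and 0.53, and Col6a1 was an exception with the larger step in batch 2, at -0.34 and -1.83. Chains that changed sign were above 0 in batch 1 and below 0 in batch 2 in 8 cases, among them Col11a1 (2.47 and -0.53) and Col6a4 (3.42 and -0.06), and the reverse in 3, with Col14a1 at -2.80 and 0.48. A test of the difference in glucose effect between batches in edgeR gave an unadjusted p under 0.05 for 13 of 39 chains, where 16.3% of all genes had one, and an FDR under 0.05 for 0 chains and 0 genes; the lowest FDR of a chain was 0.173, for Col6a4. With batch 1 alone 15 chains passed an FDR of 0.05, against 17.3% of all genes, and with batch 2 alone 0 did, as did 0 of all genes, with 11 chains at an unadjusted p under 0.05.

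**Figure D5:**
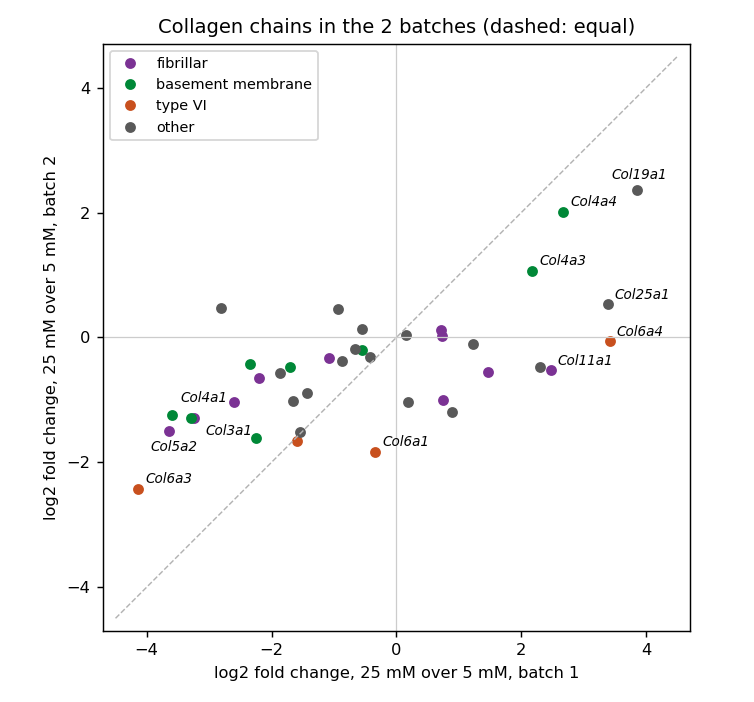
Log2 fold change (25 mM over 5 mM glucose) of each chain in batch 1 (horizontal axis) and batch 2 (vertical axis) for the 39 chains tested in both, coloured by class. On the same side of 0 in both batches lie 28 points, and 34 are further from 0 along the batch 1 axis.

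Single libraries decided some of the calls. Technical replicates of a biological replicate differed by a median of 1.61 to 2.32 times over the 21 chains with a mean of at least 5 CPM, and for a single chain by up to 8.28 times. The library of 5 mM replicate 2 in batch 1 was the highest of all 12 for several chains, at 720 CPM for Col4a1, 51.0 CPM for Col5a2 and 37.2 CPM for Col3a1. Leaving it out of its sum left 0 chains at an FDR of 0.05 in the edgeR test (22 at an unadjusted p under 0.05) and 0.715% of all genes, with Col6a3 nearest at 0.053, although all 5 kept their direction. Leaving out the library of 25 mM replicate 2 in batch 1 also left 0 (20 at an unadjusted p under 0.05) and 0 of all genes, and leaving out that of 5 mM replicate 1 in batch 2 gave 15, against 8.27% of all genes. Without 5 mM replicate 1, 24 chains passed, against 26.6% of all genes, and without 25 mM replicate 3, 6 did, against 2.27%. Leaving out any other replicate left 0 chains (18 to 26 at an unadjusted p under 0.05) and 0 of all genes. In 23 alternative settings, the 5 called chains kept their direction, and passed the threshold in 13 (Col19a1) to 16 (Col3a1 and Col6a3) of them. The settings refit the same 12 libraries or parts of them, so they are not independent support for the calls. Only 4 chains, Col3a1, Col5a1, Col5a2 and Col6a3, had libraries that did not overlap between the concentrations.

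Genes whose products modify, fold, trim, crosslink or bind collagen chains were mostly below 0 as well. Of 46 such genes listed, 44 were tested, 35 had log2 fold changes below 0 and 9 above, and the median was -0.68. Only 1 fell and 1 rose at an FDR of 0.05, against 1.98% of all genes. An unadjusted p under 0.05 was found for 21 lower and 2 higher, where 28.7% of all genes had such a p. The gene that fell was Creb3l2, a transcription factor for secretory pathway genes, with 91.5, 159 and 145 CPM at 5 mM and 34.8, 46.6 and 56.7 CPM at 25 mM, a log2 fold change of -1.52 ± 0.26 and an FDR of 0.038 in the edgeR test. By batch its log2 fold change was -2.45 and -0.39. The gene that rose was Adamts3, a protease that removes the amino-terminal propeptide of fibrillar collagens, with 10.7, 6.43 and 4.68 CPM at 5 mM and 42.5, 29.7 and 23.8 CPM at 25 mM, at 2.14 ± 0.36 (FDR 0.036), which was 3.28 in batch 1 and 1.38 in batch 2. The median over these genes was -0.96 in batch 1, with 34 below 0, and -0.35 in batch 2, with 33 below 0.

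By role, 12 of 15 hydroxylation and glycosylation genes were below 0, with a median of -0.40. The most abundant were P4hb, a subunit of prolyl hydroxylase, which went from 404 ± 60.7 to 213 ± 51.9 CPM (FDR 0.065, edgeR), and Ppib, a prolyl isomerase, from 225 ± 41.9 to 120 ± 24.0 CPM (FDR 0.064). Of 8 folding and export genes 6 were below 0, with a median of -1.09, and the export receptor Mia3 had 150 ± 9.09 and 130 ± 9.30 CPM (FDR 0.378). Serpinh1, the collagen chaperone HSP47, chosen after its values were seen, went from 126 ± 42.4 to 32.9 ± 16.5 CPM (FDR 0.054). Of 5 crosslinking genes 4 were below 0, with a median of -1.73, and the most abundant, the lysyl oxidases Loxl2 and Loxl3, had log2 fold changes of -1.81 ± 0.46 (FDR 0.070) and -0.75 ± 0.28 (FDR 0.133). Among 7 propeptide genes tested 5 were below 0 (median -0.23), and Bmp1, which removes the carboxy-terminal propeptide, went from 110 ± 54.3 to 44.1 ± 14.6 CPM (FDR 0.095). Of 9 receptor and uptake genes 8 were below 0, with a median of -0.61. Itgb1, the shared chain of collagen-binding integrins, went from 828 ± 78.7 to 403 ± 152 CPM (FDR 0.080), and the collagen receptor Ddr2 from 125 ± 3.97 to 48.5 ± 23.0 CPM (FDR 0.071).

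G and C content moved with the fold changes. Across the 42 chains tested, the log2 fold change and the GC percent of the transcripts had a Pearson correlation of -0.31 and a Spearman correlation of -0.27, given as a description since chains share libraries, and across 20273 genes the values were -0.40 and -0.43. The design did not fix a cut on GC. With one at 52%, the 13 chains below it were centred on a log2 fold change of 0.38 with 7 above 0. The 29 chains at or above it were centred on -0.92, also with 7 above 0. Col3a1, at 52.2%, lay just above the cut, and Col4a4, at 51.1%, just below it. Once counts were corrected for GC and length, 13 chains passed an FDR of 0.05, against 13.5% of all genes, and the class medians were -0.07 (fibrillar), -0.75 (basement membrane), -0.43 (type VI) and -0.08 (other). Under it Col2a1 and Col20a1 passed with log2 fold changes of 1.10 and 1.12. The part of GC content in the result was not tested further. Several chains share exonic bases with a gene on the other strand, such as Col4a3 with C430014B12Rik and Col9a3 with Tcfl5, and since it is not stated whether counting used strand, their values can include reads of the partner.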

How the data were processed

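Per the labels, the 12 RNA-seq libraries came from a stranded kit for small amounts of total RNA and were sequenced as read pairs. The gene and transcript values as deposited by the authors are expected counts, that is, estimated numbers of reads, for 53707 genes and 146263 transcripts, not normalized between libraries; per the labels the genome build was GRCm38, and the aligner, counter and annotation are not given in the sources used here. Of the nonzero gene values 100% were not whole, and 2385 of 11448 well-covered genes had a gene value whose ratio to the sum of their transcripts varied over 1.5 times between libraries, as values rescaled by transcript length do, though no source used here states such a step. The design assumed counts; since the values are expected counts, technical replicates were summed and rounded to whole numbers. No column was left unused (0).

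Symbols, positions, lengths and GC content came from GENCODE M21, which named 48714 gene identifiers (90.7%). Genes were filtered with filterByExpr, scaled by TMM and tested with the quasi-likelihood test of edgeR 4.0.16 (version 3 method, R 4.3.3, no replicate block) over 21061 genes, with Benjamini-Hochberg adjustment; the biological coefficient of variation was 0.297. The procedure was tested on simulated data. limma 3.58.1, DESeq2 1.42.0, pandas 2.3.3, scipy 1.17.1 and matplotlib 3.10.9 under Python 3.11.15 served alternatives, tables and plots. Amplified reads without molecular identifiers are not independent molecules, so totals limit counting error only.

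The chains, classes and gene lists were chosen with earlier results of these data known, and no list was tested as a set. Chains were named if among the most abundant of their class (6 fibrillar, 6 basement membrane, 3 type VI, 8 other), called at an FDR of 0.05, or the largest change of their class, 24 in all; maturation and receptor genes if among the 2 most abundant of a role or called. Others are said to be chosen after their values were seen. Alternatives were other normalizations (RLE, library totals), tests (DESeq2, limma-voom, the edgeR 4 method), filters, single batches, equal depth of technical replicates, a replicate block, a GC and length correction, transcript sums, and leaving out each replicate; leaving out each of 3 libraries was added after seeing the data. No source used here states whether same-numbered replicates of the 2 concentrations share an animal or a day. Correlations of the deviations of same-numbered samples were -0.01, -0.45 and 0.28, which with 3 replicates per concentration cannot decide this.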

Additional observations from a re-analysis of the deposited data

Results flagged for a closer look

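In 9 of 48 groups of 6 libraries (24 chains at 2 concentrations), 1 library stood apart from the other libraries by Dixon's criterion, where chance at 1 in 20 would give 2.4. That number takes libraries and groups as independent. The libraries are technical pairs from 2 batches, and all groups draw on the same 12 libraries, so no excess over chance can be read from it. At 5 mM, replicate 2 in batch 1 was the high library for Col12a1 (36.5 CPM, next 14.8), Col18a1 (136 CPM, next 61.4) and Col1a2 (24.0 CPM, next 9.74). Replicate 1 in batch 2 was the high control for Col19a1 (1.57 CPM, next 0.57) and Col25a1 (10.4 CPM, next 1.55). At 25 mM, replicate 2 in batch 1 was high for Col12a1 (23.6 CPM, next 10.5), replicate 1 in batch 1 for Col27a1 (13.9 CPM, next 7.75), and replicate 3 in batch 2 for Col1a2 (9.5 CPM, next 4.28) and Col9a3 (6.49 CPM, next 4.26). What set these libraries apart was not tested.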

How the results depend on the processing

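The values that follow are, in order, chains called at an FDR of 0.05 (5 in the report), chains called at an FDR of 0.01 with a fold change over 2 (0), maturation and receptor genes called (2), and class medians of the log2 fold change; a value not given stayed within 1.5 times or within its spread. RLE size factors, library totals, limma-voom and the edgeR 4 method moved none of them. Shares of all genes called at an FDR of 0.05 (1.98% in the report) stand in brackets. DESeq2 gave 22, 13 and 19 calls (16.6%). Without a filter, calls were 16, 6 and 18 (5.63%), and the type VI median was 0.23; with over 1 CPM in 3 replicates, the medians were -0.99 (basement membrane) and -1.22 (type VI). Batch 1 alone gave 15, 3 and 18 calls (17.3%) and medians of -0.19 (fibrillar), -1.98 (basement membrane) and -0.34 (type VI); batch 2 alone gave 0 chains and 0 maturation genes (0%), with medians of -0.45 (basement membrane) and -1.75 (type VI). Equal depth of technical replicates gave a type VI median of 0.28. Without a filter and at equal depth Col6a6 was also tested. The GC and length correction gave 13, 1 and 12 calls (13.5%) and medians of -0.074, -0.75, -0.43 and -0.080 (fibrillar, basement membrane, type VI, other). Transcript sums, also with Col6a6, gave 3 chains (1.67%) and medians of -1.47 (basement membrane) and -0.13 (type VI). With Col15a1 and Col18a1 among the other chains, the basement membrane median was -0.74. Adding the replicate block gave 8 chains and 9 maturation genes (4.7%). Together with the GC and length correction it gave 14, 6 and 17 calls (15.6%) and medians of -0.10, -0.81, -0.47 and -0.20. Under the block, Col4a1, Col4a2 and Col25a1 passed an FDR of 0.05 and Col4a4 had 0.053. It is not known whether same-numbered samples share a source. The FDR of Col4a4 under the block thus says nothing of a weaker effect, nor the added calls of stronger ones.

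Leaving out each replicate gave 0 to 24 chains, 0 to 1 at the stricter threshold, 0 to 24 maturation genes (0% to 26.6%), and medians of -1.20 to -0.43 (fibrillar), -1.66 to -0.94 (basement membrane), -1.23 to 0.28 (type VI) and -0.67 to -0.028 (other). Of the libraries left out after seeing the data, 5 mM replicate 1 of batch 2 gave 15, 1 and 12 calls (8.27%); 5 mM replicate 2 of batch 1 gave 0 chains, 0 maturation genes (0.715%) and a basement membrane median of -0.83; and 25 mM replicate 2 of batch 1 gave 0 chains and 0 maturation genes (0%). Of the 24 chains named by the rule, 5 turned sign under an alternative: Col27a1 (0.75 in batch 1, 0.41 and 0.40 with the GC and length correction without and with the block, 0.054 with transcript sums, -0.43 to 0.00018 when leaving out replicates, positive without 25 mM replicate 3), Col7a1 (0.18 in batch 1, 0.41 in both corrected fits, -0.77 to 0.086 when leaving out replicates, positive without 5 mM replicate 2), Col12a1 (-0.77 to 0.24 when leaving out replicates, positive without 5 mM replicate 2), Col20a1 (-0.10 in batch 2) and Col8a1 (0.45 in batch 2). The sign changes of other chains between batches stand in the report. The cause was not tested. Depth limits the chains near or below 1 CPM, Col6a3 and Col19a1 among them, in the group where they are low.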

Other observations

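All 5 chains called lie on chromosome 1, which holds 7 of the 44 chains (15.9%) and 6% of the genes tested that have a position in the annotation. Of all genes called, 7.23% lie on it. The position was looked up after the calls were known, and it was not tested.

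In 5 mM replicate 1, Col4a1 and Col4a2 together made up 31.9% of collagen CPM, the same share as in 25 mM replicate 3, against 58.2% and 56.4% in the other controls. This replicate also had the lowest sum of endothelial markers among the controls (1156 CPM), and both its libraries were closest, outside their own replicate, to the batch 2 library of 25 mM replicate 2.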
